A study of Homo sapiens with 8 samples.

Results

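The members described here are the sgRNAs of a pooled CRISPRi screen whose lncRNA target lies on chromosome 18. They were chosen by the chromosome that the count files give for each targeting sgRNA, with no use of the counts, and number 49 of 6389 targeting sgRNAs and 6862 listed sgRNAs in all. They address 7 of 957 target IDs. The paper describes a designed library with more sgRNAs and more lncRNA targets than were counted here. At least 1 chromosome 18 target of that design, not among these 7, has no counts here. The members are therefore not its complete chromosome 18 set. Targets were placed on an arm by the position of their transcription start site (TSS). The short arm, up to the TSS at 8830019, holds 6 targets and 44 sgRNAs, and the long arm holds 1 target, at 24003099, and 5 sgRNAs. The screen was made in SW620, a human cell line from a colorectal adenocarcinoma, which carried dCas9 fused to the KRAB repressor domain in both groups. Of 8 libraries, 4 were labelled control and day 0, and 4 were labelled treatment and day 17. The same later samples carry a cultured time of 18 days. Both groups were counted over the same list of sgRNAs. The comparison is therefore of abundance within the pool over the culture, in a single cell line. The paper describes 4 independent infections, and the labels do not say whether equal replicate numbers share an infection.

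In CRISPRi, the sgRNA brings a Cas9 that cannot cut DNA to a start site, and KRAB represses the transcript that begins there. If a transcript is needed for growth, the cells in which it is repressed are outgrown, and their sgRNA takes up a smaller share of the pool. The long arm of chromosome 18 is often lost in colorectal cancer and carries SMAD4 and SMAD2, signal transducers of the TGF-beta pathway, and DCC, the netrin receptor. Neither copy number nor the knockdown of any chromosome 18 target was measured in these libraries.

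Short arm targets were ENST00000584431.1, an Ensembl transcript ID, and T157806, T157809, T157811, T158050 and T158356. The long arm target was TCONS_00026302, with its TSS at position 24003099 on the plus strand. The files do not pair these IDs with gene symbols, and the genome build of their positions is not given in the sources used here. Positions are therefore those of the files. Among all targeting sgRNAs, 181 pairs lay close enough to share at least 8 bases, and in all 181 the letters matched when sgRNAs marked plus were read on the minus strand, against 0 when they were read on the plus strand. An sgRNA marked plus in the files therefore reads along the minus strand of the chromosome.

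The sequences on which the arm comparison rests are the 5 sgRNAs of the long arm target, shown 5′ to 3′ with the 12 bases next to the PAM, the seed on which Cas9 binding depends most, in capitals.
YLQ1456: attgtagcATGGTGTGGGGA
YLQ1458: atatttgtGGAGCTGGAACT
YLQ1459: catattccAAGGCCCTGTAC
YLQ1462: caacctgtTATTCTTTCACA
YLQ1464: cttatctcACCTCCACACAG
They bind from 46 bp upstream (YLQ1456, at an offset of -46 bp) to 290 bp downstream (YLQ1464) of the TSS.

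T158356 holds the only chromosome 18 sgRNA that passed the test, YLQ884, and 7 of its 8 sgRNAs are shown in the same way so that the called sequence stands beside others that were not called.
YLQ883: aattcccaGAAACGTGCTAC
YLQ884: cgctgcatGGCATGGTGTCC
YLQ885: gctttcccGAGAAGCCACTG
YLQ886: tacatgccGGTGTGTTACTA
YLQ888: ggcaaagaGGGGGTACTGAA
YLQ889: cctggctgGTGCTGAAGAGC
YLQ891: cacacactACTTCTATAACA
The sgRNAs of this target lie between positions 8829742 and 8830067. T158356 is the only minus strand target of the 7, with its TSS at position 8830019.

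Abundance is given in RPM, which divides the reads of an sgRNA by all reads counted in its library, so that libraries of unequal depth can be compared. Library totals lay between 3417248 and 3999875 counts. Day 17 was compared with day 0 by edgeR's quasi-likelihood test over all 6587 sgRNAs with enough counts, and an sgRNA was called at a Benjamini-Hochberg adjusted p under 0.05. Of the 49 members, 47 passed the count filter, 42 on the short arm and 5 on the long arm. The other two, YLQ439 of ENST00000584431.1 and YLQ467 of T157806, had at most 8 and 17 counts in any library and were not tested. At day 0 the members together made up 0.583% of the reads and 0.714% of the listed sgRNAs. Their mean abundance at day 0 ran from 0.645 RPM (YLQ439) to 934 RPM (YLQ686), with a median of 55.1 RPM against 75.8 RPM over all targeting sgRNAs.

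As a group, the chromosome 18 sgRNAs stayed close to their starting abundance. Their summed abundance was 5766, 6034, 5672 and 5845 RPM in day 0 replicates 1 to 4, and 5615, 5962, 5707 and 5798 RPM in day 17 replicates 1 to 4. These ranges overlap. The log2 fold change of the 47 tested sgRNAs, day 17 over day 0, was negative for 25 and positive for 22, with a median of -0.0094. Over all 6126 tested targeting sgRNAs the median was 0.01, and over 461 non-targeting sgRNAs it was 0.0031.
No chromosome 18 sgRNA was called depleted by edgeR, where 0.751% of all tested targeting sgRNAs were depleted. At an unadjusted p under 0.05 from edgeR, 3 of 47 (6.38%) were lower, against 3.17% of all tested targeting sgRNAs. Among non-targeting sgRNAs, 3.90% were lower and 5.21% higher at that threshold (9.11% in either direction), and 0% passed after adjustment. DESeq2, which gave a p to all 49 members, called 1 depleted, YLQ1456 of the long arm target, where it called 1.19% of all targeting sgRNAs depleted. It also called 1 enriched, YLQ884, against 0.266%. At an unadjusted p under 0.05 DESeq2 had 5 of 49 members lower and 2 of 49 higher, against 4.65% lower and 3.92% higher in the library. For enrichment, edgeR called 1 of 47 sgRNAs (2.13%), YLQ884, against a background of 0.0816%. This 1 sgRNA was also the only member higher at an unadjusted p under 0.05, where the background was 2.81%. In 3 sgRNAs, YLQ464, YLQ466 and YLQ1456, every day 17 library lay below every day 0 library (6.38%, against 2.74% of all tested targeting sgRNAs). Only YLQ884 showed the reverse (2.13%, against 1.67%). With counts of 0 to 3 among 47, and of 1 to 5 among 49 for DESeq2, these shares rest on few sgRNAs.

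Values were also described by depth. Among the 34 tested members with at least 100 counts in every day 0 library, log2 fold changes lay between -0.45 and 0.37 with an SD of 0.16. In the whole library, 4501 targeting sgRNAs met this depth and had an SD of 0.20, and 347 non-targeting sgRNAs had an SD of 0.14. The 13 members with fewer counts, all on the short arm, spread from -1.21 to 0.77 with an SD of 0.65, against 0.52 over the 1625 targeting and 0.56 over the 114 non-targeting sgRNAs below this depth. The lowest and the highest fold changes on the chromosome, those of YLQ466 and YLQ681, both belong to these 13. 

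Summed by arm, the short arm did not separate by day, and the long arm lay lower at day 17 in all libraries. The 44 short arm sgRNAs held 5026, 5340, 4967 and 5124 RPM at day 0 and 4986, 5348, 5059 and 5144 RPM at day 17, ranges that overlap. The 5 long arm sgRNAs held 741, 695, 705 and 721 RPM at day 0 and 629, 614, 648 and 654 RPM at day 17. Every day 17 library thus lay below every day 0 library. These sums are those of the single long arm target. How many of all targets separate by day in this way was not counted, so how ordinary this separation is cannot be told. The ratio of long arm to short arm abundance was 0.147, 0.130, 0.142 and 0.141 at day 0, and 0.126, 0.115, 0.128 and 0.127 at day 17, with no overlap. Since the short arm sum changed little, the ratio follows the long arm values and is not a separate observation. No test was made of this ratio, since the long arm is represented by a single target and its sgRNAs are not replicates. By sgRNA, the median log2 fold change was -0.0029 over the 42 tested on the short arm, and -0.21 over the 5 on the long arm, of which 4 were negative. The long arm median was -0.082 without day 17 replicate 2 and -0.13 without day 17 replicate 4.

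The lower abundance of the long arm target came mostly from its most abundant sgRNA. On the summed counts of each target, tested by edgeR over all targets, TCONS_00026302 went from 715 ± 20 to 636 ± 18 RPM (SD, n = 4 each). The log2 fold change was -0.17 (standard error, SE, 0.05, 95% interval -0.28 to -0.06), which is 0.890 of the starting abundance, and it was not called (unadjusted p = 0.0036 and edgeR adjusted p = 0.267). DESeq2 called it (adjusted p = 0.0223). Of 953 tested targets, 31 had a lower fold change on summed counts.
YLQ1456, the sgRNA upstream of the TSS, supplied 51.5% of the day 0 reads of this target. It stood at 402, 367, 349 and 355 RPM at day 0 and at 301, 300, 308 and 319 RPM at day 17. All 4 later libraries were below all 4 earlier ones. A two-sided exact permutation test gave p = 0.0286, and no smaller value is possible with 4 libraries a group. Its log2 fold change was -0.25 (SE 0.08, 95% interval -0.41 to -0.09), with an adjusted p of 0.21 from edgeR and 0.0176 from DESeq2.
The next most abundant, YLQ1464, stood at 170, 163, 181 and 182 RPM at day 0 and at 178, 177, 166 and 165 RPM at day 17. Its groups overlap, and its log2 fold change was -0.0068 (SE 0.11, 95% interval -0.22 to 0.21). YLQ1458 and YLQ1462, at 83 and 208 bp downstream, had log2 fold changes of -0.22 and -0.21 with SEs of 0.18 and 0.21, and overlapping groups. YLQ1459, at 115 bp, had 0.07 (SE 0.21). Without YLQ1456, the other 4 sgRNAs held 338, 328, 355 and 367 RPM at day 0 and 328, 314, 340 and 334 RPM at day 17, ranges that overlap.

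The enriched sgRNA of the chromosome, YLQ884, rose to about 1.20 times its starting abundance. It binds 242 bp downstream of the TSS of T158356 on the short arm. Its abundance was 425, 490, 460 and 468 RPM at day 0 and 529, 574, 502 and 584 RPM at day 17, with every later library above every earlier one (two-sided exact permutation p = 0.0286). From 461 ± 27 to 547 ± 39 RPM (SD, n = 4 each), the log2 fold change was 0.26 (SE 0.07, 95% interval 0.13 to 0.39, edgeR adjusted p = 0.0403). Its fold is below that of 601 tested targeting sgRNAs, and it had 1598 to 2039 counts in each library.
With any 1 library left out, its log2 fold change stayed between 0.22 and 0.30, while the call was kept in 3 of 8 fits by edgeR. Without day 0 replicate 1, 3 and 4 the log2 fold change was 0.22, 0.26 and 0.27 (edgeR adjusted p = 0.397, 0.152 and 0.108), and without day 17 replicate 2 and 4 it was 0.24 and 0.23 (edgeR adjusted p = 0.153 and 0.152). The call was kept without day 0 replicate 2 (edgeR adjusted p = 0.0473) and without day 17 replicate 1 and 3 (edgeR adjusted p = 0.0424 and 0.0136). Over all 15 alternative analyses, which include these 8 fits, the call was kept in 7 and lost in 8.
YLQ885, whose position is 24 bp away, had a log2 fold change of 0.21 with an SE of 0.36, and its day 17 abundance ran from 9.23 to 48.5 RPM. YLQ883, 35 bp away on the other side, had -0.15 (SE 0.23). YLQ889 had -0.17 (SE 0.09, edgeR unadjusted p = 0.0649), the opposite sign to YLQ884, at 323 RPM at day 0. YLQ891, 48 bp upstream at an offset of -48 bp, had 0.08 (SE 0.13). The lowest of the target, YLQ886, stood at -1.07 on the log2 scale (SE 0.74), but started from 8, 29, 11 and 26 counts and ended at 8, 8, 15 and 1. YLQ888, with 49, 25, 34 and 35 counts at day 0, had -0.34 (SE 0.51).
Over all 8 sgRNAs, T158356 had 1490 ± 69 RPM at day 0 and 1549 ± 83 RPM at day 17 (SD, n = 4 each). Its log2 fold change on summed counts was 0.06 (SE 0.04, 95% interval -0.02 to 0.14, edgeR adjusted p = 0.826). Without YLQ884, the other 7 sgRNAs held between 943 and 1082 RPM at day 0 and between 940 and 1095 RPM at day 17.

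T157806, T157809 and T157811 form a single cluster on the short arm. Their TSS lie at positions 3282125, 3282739 and 3282773 on the plus strand, 614 bp and then 34 bp apart, and their 18 sgRNAs cover positions 3281953 to 3283053. The start sites of T157809 and T157811 are too close for their sgRNAs to be told apart by position, and members of this cluster were not taken as independent. Of 17 tested sgRNAs, 9 had a negative and 8 a positive log2 fold change, with a median of -0.02.
The test by edgeR gave 2 members of the cluster an unadjusted p under 0.05, both lower, YLQ466 and YLQ483. YLQ466 is shown beside YLQ467, with which it shares 8 bases, and YLQ483 beside its neighbor YLQ482. In YLQ466 and YLQ467 the capitals mark the shared bases, and in YLQ482 and YLQ483 the 12 bases next to the PAM.
YLQ466: TTCAACAAaggtcattattt
YLQ467: tatgatctcatgTTCAACAA
YLQ482: tgagttctTATCTGTTACCA
YLQ483: tgaacagcTGTTTGGCACCC
YLQ466, at an offset of -89 bp from the TSS of T157806, had 38, 34, 36 and 34 counts at day 0 and 13, 10, 21 and 12 counts at day 17. All later libraries were below all earlier ones, at 9.31 ± 0.82 and 3.97 ± 1.44 RPM (SD, n = 4 each; two-sided exact permutation p = 0.0286). With so few counts, its log2 fold change of -1.21 had an SE of 0.56 (95% interval -2.35 to -0.08), and the adjusted p from edgeR was 0.766. YLQ467, at -77 bp, had 17, 9, 0 and 17 counts at day 0 and 8, 3, 6 and 0 at day 17, too few to be tested.
YLQ464, the outermost member at -172 bp, stood at 41.8, 44.3, 46.4 and 50.7 RPM at day 0 and at 36.3, 33.5, 25.8 and 37.5 RPM at day 17, with no overlap. Its log2 fold change was -0.45 (SE 0.23, unadjusted p = 0.0547 and edgeR adjusted p = 0.818). YLQ465 between them, at -123 bp and with the most reads of T157806, had -0.08 (SE 0.12). YLQ468, at -28 bp, had -0.18 (SE 0.21). Downstream of the TSS, YLQ470 and YLQ472 had 0.02 and 0.10 (SEs 0.19 and 0.16). YLQ471 had 0.26 with an SE of 0.69, and its counts ran from 2 to 31 at day 0 and from 5 to 60 at day 17.
On summed counts, T157806 went from 412 ± 11 to 382 ± 53 RPM (SD, n = 4 each), with -0.11 as log2 fold change (SE 0.08, edgeR adjusted p = 0.826). Day 17 replicate 1 was the lowest library of this target, at 312 RPM against 371 to 427 RPM in the other 3, and without it the log2 fold change was -0.02.

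T157809, with 9 sgRNAs, was the target of the cluster with the most reads, and its sum stayed close to the starting abundance. Its 6 sgRNAs with at least 100 counts in every day 0 library had log2 fold changes from -0.09 to 0.08. The most abundant, YLQ479, stood at 236, 224, 258 and 256 RPM at day 0 and at 224, 238, 226 and 262 RPM at day 17. Its log2 fold change was -0.02 (SE 0.09). The highest value, 0.62 for YLQ481, came from 34 to 65 counts at day 0 and had an SE of 0.40. The lowest, -0.09 for YLQ475, had an SE of 0.16. On summed counts the target held 819 ± 5 RPM at day 0 and 809 ± 41 RPM at day 17 (SD, n = 4 each). The log2 fold change was -0.02 (SE 0.05, 95% interval -0.12 to 0.08).
YLQ483 is the only listed sgRNA of T157811 and binds 280 bp downstream of its TSS, or 314 bp downstream of that of T157809. It stood at 26.5, 17.3, 27.7 and 14.8 RPM at day 0 and at 11.2, 15.6, 9.87 and 10.5 RPM at day 17. The groups overlap in 1 library each, day 0 replicate 4 and day 17 replicate 2 (two-sided exact permutation p = 0.0571). The log2 fold change was -0.86 (SE 0.37, 95% interval -1.61 to -0.10, edgeR adjusted p = 0.707). YLQ482, whose position is 20 bp away and which is listed under T157809, had a log2 fold change of 0.0035 (SE 0.30, 95% interval -0.61 to 0.61). On summed counts, where it stands alone, T157811 had the lowest value of the 7 targets (-0.87), and only 3 of 953 tested targets were lower. Its adjusted p there was 0.568 from edgeR. Ranked among single sgRNAs instead, YLQ483 had 94 of 6126 tested targeting sgRNAs below it.

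T158050, with its TSS at position 5241005 on the plus strand, was the most abundant target and the one measured most closely. Its 9 sgRNAs summed to 1825, 2039, 1852 and 1905 RPM at day 0 and to 1883, 1875, 1927 and 1884 RPM at day 17. The log2 fold change on summed counts was -0.0092 (SE 0.03, edgeR adjusted p = 0.971). Its 95% interval, -0.08 to 0.06, corresponds to 0.947 to 1.04 times the starting abundance. YLQ686 supplied 49.0% of these reads. It stood at 868, 1011, 892 and 965 RPM at day 0 and at 871, 868, 945 and 1000 RPM at day 17, a log2 fold change of -0.0094 (SE 0.05). YLQ685 overlaps YLQ686 by 8 bases, shown in capitals, which are read on opposite strands.
YLQ685: ggctctggccccTGTTGAGA
YLQ686: actgcttcccctTCTCAACA
YLQ685 was far less abundant, with 34.2 ± 4.3 RPM at day 0 and 33.5 ± 6.4 RPM at day 17 (SD, n = 4 each). Its log2 fold change was -0.02 (SE 0.25), and the intervals of both overlapping sgRNAs include 0. The other well-counted sgRNAs of this target lay between -0.16 (YLQ688) and 0.22 (YLQ682). YLQ682 stood at 166, 179, 182 and 178 RPM at day 0 and spread from 149 to 247 RPM at day 17 (edgeR unadjusted p = 0.0696). YLQ687 stood between 75.5 and 86.1 RPM at day 0 and between 84.6 and 96.9 RPM at day 17, a log2 fold change of 0.20 (SE 0.15).
YLQ681 had the highest log2 fold change on the chromosome, 0.77 (SE 0.41), and 1 library set it. It had 33, 61, 49 and 43 counts at day 0, and 167, 45, 45 and 44 counts at day 17.

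ENST00000584431.1, with its TSS at position 2948338 on the plus strand, was the target nearest the end of the short arm. Its 9 sgRNAs summed to 464, 486, 458 and 460 RPM at day 0 and to 483, 496, 461 and 522 RPM at day 17, a log2 fold change of 0.07 (SE 0.06, 95% interval -0.06 to 0.20, edgeR adjusted p = 0.89). Of 8 tested sgRNAs, 5 had a positive and 3 a negative log2 fold change. YLQ435, with 35.2% of the reads, was at 192, 157, 160 and 148 RPM at day 0 and at 158, 149, 149 and 198 RPM at day 17. Its log2 fold change was 0.0080 (SE 0.12). The highest, YLQ436, had 0.58 (SE 0.31, edgeR unadjusted p = 0.0632), with 13.9 to 49.8 RPM at day 17 against 19.0 to 32.8 RPM at day 0. YLQ440 had 0.37 (SE 0.19, edgeR unadjusted p = 0.0548). The lowest, YLQ441, had -0.55 with an SE of 0.49.
This target holds 3 of the 4 chromosome 18 sgRNAs with a run of at least 4 T (TTTT, searched on the sgRNA strand only), a signal at which RNA polymerase III, the polymerase that usually transcribes sgRNAs, can stop. They are shown with the run in capitals.
YLQ435: gTTTTTcctgatggtgtgaa
YLQ440: gtgctcTTTTTggtagatct
YLQ441: tagttggtaaaaataTTTTc
YLQ472: TTTTgtgagatgcgtatgaa
Such a run is found in 8.16% of the members and in 5.10% of all targeting sgRNAs. The median log2 fold change was 0.05 over these 4 members and 0.01 over the 314 tested targeting sgRNAs that hold it. None of these 314 was called by edgeR, against 0.751% depleted and 0.0816% enriched among all tested targeting sgRNAs. With shares this low, the absence of calls does not clearly set them apart.

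Across the 7 targets, summed counts gave no call by edgeR, where 0.839% of 953 tested targets were lower at an adjusted p under 0.05 and 0% were higher. At an unadjusted p under 0.05, T157811 and TCONS_00026302 were lower and none was higher, against 4.41% lower and 2.83% higher among all targets. DESeq2 called 1 lower, TCONS_00026302, and none higher, where it called 1.78% of all targets lower and 0.313% higher. The log2 fold changes on summed counts, from low to high, were those of T157811, TCONS_00026302, T157806, T157809, T158050, T158356 and ENST00000584431.1. The 95% intervals of the last 5 all include 0 and overlap one another. Those of T157811 (-1.61 to -0.12), TCONS_00026302 (-0.28 to -0.06) and T157806 (-0.27 to 0.05) also overlap one another. The order is therefore not settled within either set.

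By position and base composition the members were compared with the rest of the library without a test. The 9 tested members upstream of or at their TSS had a median log2 fold change of -0.15, against 0.02 over 1092 targeting sgRNAs in the same window, and they include YLQ466 and YLQ1456. Within 100 bp downstream the median of 11 tested members was -0.03 (0.015 over all targeting sgRNAs there), and from there to 300 bp the median of 26 was 0.01 (0.0060). The upstream members come from only 5 targets, 4 of the 9 from T157806 alone, so this is a description of few start sites. The members were poorer in G and C than the library, with a median of 45% against 50%. The 12 tested members under 40% GC had a median log2 fold change of 0.04, the 23 from 40% to 50% had -0.0068, and the 12 above 50% had -0.09. Over all targeting sgRNAs the medians in these classes were 0.02, 0.01 and 0.0065, which fall in the same order over a smaller range.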

How the data were processed

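SgRNA counts came from 8 libraries of genomic DNA. The authors amplified the sgRNA region in 2 rounds of PCR, sequenced it and deposited, for each library, the raw count of every sgRNA, not normalized and not pooled. FastQC 0.11.2, Bowtie and hg38 are named, without a role, in the processing notes of the submitters. How reads were assigned to sgRNAs is not given in the sources used here. Counts are reads, not molecules, so depth bounds counting error only. The labels call the libraries biological replicates.

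Libraries were grouped by title. From the deposited counts, sgRNAs were filtered (filterByExpr), scaled by TMM and tested with robust glmQLFit and glmQLFTest in edgeR 4.0.16 (R 4.3.3; biological coefficient of variation 0.183). Target sums were fitted likewise, with non-targeting sgRNAs kept as single rows. P-values were adjusted over all features tested. Standard errors were derived from the F statistic of each fit. RPM, exact permutation tests (70 groupings, two-sided) and sequence features were computed in Python 3.11.15 with scipy 1.17.1. The fit was tested on simulated data. Replicates were not copies (chi-square per degree of freedom 4.91 to 5.32 at day 0 and 10.6 to 11.8 at day 17). Libraries thus differed more among themselves at day 17, while the fit assumed the same relative spread in both groups.

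Named sgRNAs were those with an adjusted or unadjusted p under 0.05 and, per target, the lowest, highest and most abundant; others were added after their values were seen. An sgRNA that this rule names is not reported here. The members and lists were chosen with earlier results of these data known. Alternatives were total-count scaling, factors from non-targeting sgRNAs, DESeq2 1.42.0, 2 other count filters, a replicate block, each library left out, the methods' two-tailed test, a pseudocount of 1 RPM, and sums over sgRNAs that pass the filter. No reference genome was used. None of the sgRNAs was placed on a gene.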

Additional observations from a re-analysis of the deposited data

Results flagged for a closer look

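Sets of 4 libraries, 116 in all, were examined at day 0 and at day 17. They include each tested member, each target sum, the sums by arm and the ratio of the arms. The gap of the library farthest from the others was set against the 95% critical value of Dixon's test, and 7 sets passed it. The sets are not all independent, since T157811 has 1 sgRNA and the long arm 1 target. Chance flags about 1 in 20 sets, so that a count of this size is near the one chance gives. At day 17, YLQ681 of T158050 stood at 43.3 RPM in replicate 1 and at 12.9 to 13.1 RPM in the other 3 libraries. YLQ688 of the same target stood at 89.5 RPM in day 17 replicate 2 and at 56.8 to 59.7 RPM in the others. YLQ683 stood at 29.0 RPM in day 0 replicate 1, below 48.4 to 51.0 RPM in the others, and YLQ684 at 339 RPM in day 0 replicate 2, above 292 to 296 RPM in the others. YLQ475 of T157809 stood at 98.7 RPM in day 17 replicate 3, above 71.0 to 73.5 RPM in the others. YLQ891 of T158356 stood at 171 RPM in day 17 replicate 4, above 124 to 131 RPM in the others. The ratio of long arm to short arm abundance was 0.115 in day 17 replicate 2 and 0.126 to 0.128 in the other 3 libraries.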

How the results depend on the processing

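The number of depleted chromosome 18 sgRNAs was 0 in 14 of 15 alternatives and 1 with DESeq2. The number enriched was 0 with total counts, with factors from the non-targeting sgRNAs and with the methods' two-tailed test, and 0 to 1 when a library was left out. The adjusted p of YLQ884 was 0.0639, 0.0634 and 0.465 in the first 3 of these, with a log2 fold change of 0.25 in each, and ran from 0.0136 to 0.397 with a library left out, with log2 fold changes of 0.22 to 0.30. The number of targets changed on summed counts was 0 in 13 of 14 alternatives and 1 with DESeq2. The median log2 fold change of the long arm ran from -0.25 to -0.082 with a library left out and moved past its spread by replicate number in no other alternative. The medians of all members (-0.03 to 0.0059) and of the short arm (-0.03 to 0.02) moved by less than that spread. The cause of these differences was not tested.
With the replicate number as a block, 0 members were depleted, 1 was enriched and 0 targets changed. Deviations of equally numbered libraries correlated at 0.0849 to 0.115, each library best with its own number, a hint from the data and not from the design. Depth limits the 13 tested members with under 100 counts in a day 0 library, whose standard errors were larger.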
